A study of Mus musculus with 10 samples.

Results

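The constitutive proteasome genes were compared between CD90-negative and CD90-positive myofibroblastic cancer-associated fibroblasts (myCAFs) of mouse pancreatic ductal adenocarcinoma. Members were the protein-coding genes whose symbol begins with Psma, Psmb, Psmc, Psmd, Psme, Psmf or Psmg and a number, without the immunoproteasome genes Psmb8, Psmb9 and Psmb10. This gave 47 of 48471 genes. The rule used symbols only and no measured value, though it was chosen with earlier results of these data known. Tumours had grown from KPC T-LOH organoids transplanted orthotopically into C57BL/6J mice, which the labels describe as male. All libraries thus share the host strain, the organoid origin and the myCAF sort, and differ in surface CD90. Each fraction had 5 libraries from 5 tumour pools of 4, 1, 2, 3 and 1 animals by their titles, and the fractions of a pool carry the same animal numbers. The labels name the sorted population but not the markers that define the myCAF gate besides CD90, nor the age of the animals. Separate tumours underlie the pools, but the labels do not say whether the animals of a pool were combined before or after sorting.

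The proteasome degrades proteins tagged with ubiquitin. Its core, the 20S particle, stacks rings of alpha subunits (Psma), which gate the entrance, around rings of beta subunits (Psmb), of which Psmb5, Psmb6 and Psmb7 carry the peptidase sites. The 19S cap adds a ring of ATPases (Psmc) that unfolds substrates and a set of non-ATPase subunits (Psmd) that bind and remove ubiquitin chains. Psme genes encode other activators of the core, Psmf1 an inhibitor, and Psmg genes chaperones that assemble the core. In interferon-exposed and immune cells Psmb8, Psmb9 and Psmb10 replace the catalytic subunits, which changes the peptides cut for MHC class I.

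Libraries held 11.7 to 47.7 M estimated counts, with 3.71 to 28.5 M on genes that are nuclear and code for protein, and 7616 to 84692 on the 47 members. Thy1, which encodes CD90, was lower in the CD90-negative library of 5 of 5 pools (8.47 ± 5.18 against 89.1 ± 29.5 CPM; SD, n = 5). CPM are counts scaled to a common library size, after TMM scaling. Of 10 fibroblast and myCAF markers, 9 were called lower and 0 higher in the CD90-negative fraction, and their summed level ran from 4082 to 20454 CPM there against 32557 to 54307 CPM in the CD90-positive fraction. Of 10 cancer epithelial markers, 7 were called higher and 0 lower, with summed levels of 718 to 3015 against 180.1 to 1629 CPM. Of the 8 macrophage and leukocyte markers tested 1 was called higher, of 5 endothelial markers 2, of 4 pericyte markers 0, and of the 2 acinar markers tested 0, with none called lower in these 4 lists. Of all genes tested 5.83% were called higher and 7.05% lower (edgeR adjusted p under 0.05). All 8 macrophage and leukocyte estimates were nonetheless positive (median log2 fold 2.03, CD90-negative over CD90-positive). Of the 4 pericyte estimates 1 was positive and 3 were negative, each at an unadjusted edgeR p under 0.05. Mitochondrial rRNA took 59.3% ± 17.6 of counts assigned to genes in the CD90-negative libraries and 26.9% ± 12.8 in the others (SD, n = 5; exact paired permutation test, two-sided, p = 0.0625, the smallest that 5 pools allow). These measures moved with the fraction in every comparison below, and their part in the proteasome values was not tested. Whether a bulk level changed through RNA per cell or through the kinds of cells in the sort cannot be told apart.

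No proteasome member was called different between the fractions. Of the 44 members with enough counts to be tested, 0 were higher and 0 were lower in CD90-negative cells (edgeR quasi-likelihood test with the pool as a block, Benjamini-Hochberg adjusted p under 0.05 over 15378 genes), whereas 5.83% of all genes tested were called higher and 7.05% lower. At an unadjusted p under 0.05 there were 5 members (11.4%), namely Psmc3, Psmd8, Psma3, Psmd14 and Psmd7, against 26.9% of all genes. DESeq2 called 2 members lower and limma-voom 1, which are given with Psmc3 and Psme2b below. The estimates were small: their median log2 fold, CD90-negative over CD90-positive, was -0.06 beside 0.04 over all genes, and their median absolute log2 fold was 0.22 beside 0.51. Among genes whose log2 CPM averaged 3 or more, the median absolute log2 fold was 0.18 over 34 members and 0.36 over 7447 genes.

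A miss of the threshold does not show that levels were equal. In simulated counts the fit missed most 2-fold changes, but the changed genes were drawn from all abundances. That simulation gave 73 calls, against 1980 in the data, and 34 of the members averaged 3 or more log2 CPM. Its rate of misses is therefore not the rate for the members. The 95% intervals of the folds were read as well. The interval lay wholly within a 2-fold change in either direction for 35 of the 44 members tested (79.5%), as it did for 32.4% of all genes. Among genes averaging 3 or more log2 CPM it did so for 32 of 34 members and for 61.0% of genes. The 9 members whose interval reached past 2-fold were Psmd5, Psmd10, Psmd14, Psmf1, Psmg2, Psmg3, Psmg4, Psme2b and Psmc3ip. All of these but Psmd5 and Psmd14 had a mean log2 CPM under 3.

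**Figure D1:**
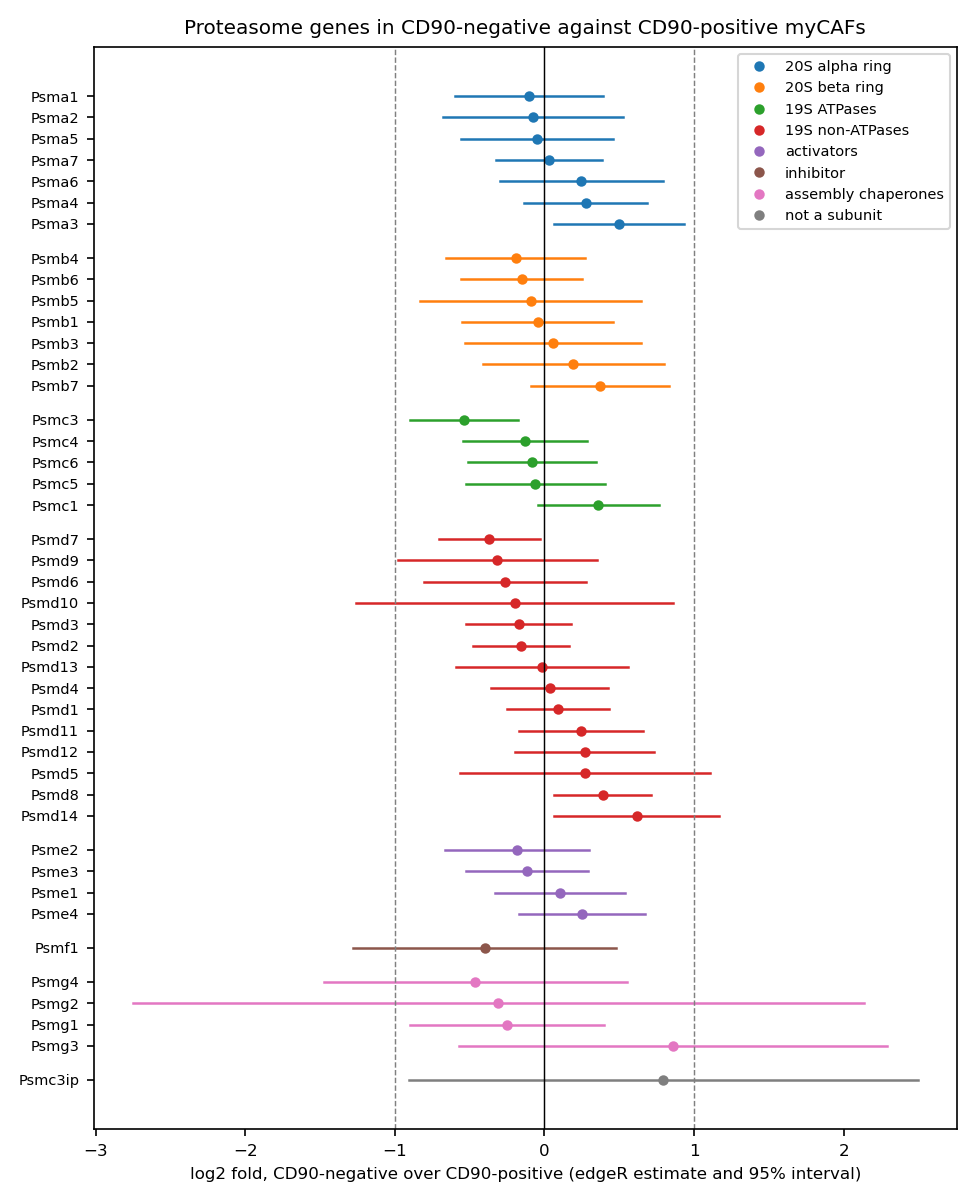
Log2 fold of CD90-negative over CD90-positive libraries (x axis) for 43 of the 44 proteasome members tested, by role (colour), with the edgeR estimate (point) and its 95% interval (line); dashed lines mark a 2-fold change. Most intervals span 0 and stay inside the dashed lines, and the widest belong to Psmg2, Psmg3 and Psmc3ip. Psme2b, at -3.00 with an interval from -6.09 to 0.10, is left out for scale.

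The pools did not move together. Psm genes were higher in the CD90-negative fraction for 24, 21, 16, 25 and 22 of the 44 members in pools 1 to 5, with median log2 differences of 0.05, -0.05, -0.15, 0.13 and 0.03. Pool 3 leaned lower. Pool 4 had the highest median, but its count of 25 was close to the 24 of pool 1. Only 6 members (13.6%) moved the same way in all 5 pools, against 28.4% of all genes tested: Psmb7, Psmd8, Psmd14 and Psmg3 were higher and Psmc3 and Psmd7 lower. The CPM of the fractions did not overlap for 1 member, Psmc3, whereas they did not for 7.93% of all genes.

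The 7 alpha subunits, which form the outer rings of the core, lay between -0.10 (Psma1) and 0.50 (Psma3) on the log2 scale. Psma3 measured 30.9, 36.9, 35.8, 42.6 and 24.6 CPM in the CD90-negative libraries of pools 1 to 5 and 15.6, 25.9, 40.1, 25.3 and 18.5 CPM in the CD90-positive ones. It was higher in 4 of 5 pools, and the ranges overlapped, with the CD90-positive libraries of pools 2, 3 and 4 above the lowest CD90-negative one. The log2 fold of 0.50 (SE 0.19, 95% interval 0.07 to 0.93) had an edgeR adjusted p of 0.129. Of the Psma3 counts, 26.3% in the CD90-positive and 32.1% in the CD90-negative fraction fell on protein-coding transcripts, the lowest shares among the 44 members tested. A retained-intron transcript, Psma3-203, held 54.8% and 53.5% of them on average, so the gene value of Psma3 is mostly not of spliced coding RNA. Psma1 measured 9.67, 9.79, 16.7, 10.8 and 7.79 CPM in the CD90-negative and 12.7, 11.1, 16.5, 12.4 and 6.58 CPM in the CD90-positive libraries, with a log2 fold of -0.10 (SE 0.22; edgeR adjusted p = 0.821). Its highest value in both fractions came from pool 3 and its lowest from pool 5. Psma2, Psma4, Psma5, Psma6 and Psma7 had log2 folds from -0.08 to 0.28, with 0 called.

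Of the 7 beta subunits 0 were called, with log2 folds from -0.19 (Psmb4) to 0.37 (Psmb7). Psmb5, the chymotrypsin-like site and the main target of proteasome inhibitor drugs, measured 8.12, 7.34, 7.09, 13.3 and 8.20 CPM in the CD90-negative and 12.0, 12.2, 10.4, 10.5 and 3.63 CPM in the CD90-positive libraries of pools 1 to 5. It was lower in pools 1, 2 and 3 and higher in pools 4 and 5, and its log2 fold of -0.09 (SE 0.33, 95% interval -0.83 to 0.65) was the least precise of the core subunits. Psmb6, the caspase-like site, measured 15.9, 17.0, 17.6, 19.4 and 17.1 CPM against 18.4, 15.4, 22.6, 22.4 and 18.7 CPM. It was lower in 4 of 5 pools by a log2 fold of -0.15 (SE 0.18; edgeR adjusted p = 0.659). Psmb7, the trypsin-like site, measured 12.9, 14.9, 17.6, 16.8 and 12.8 CPM against 11.5, 10.2, 16.0, 12.2 and 8.74 CPM. Its log2 fold was 0.37 (SE 0.21, 95% interval -0.09 to 0.83, edgeR adjusted p = 0.292), higher in 5 of 5 pools with overlapping ranges. Psmb4, a structural beta subunit, measured 12.2, 12.7, 19.7, 18.4 and 13.5 CPM against 16.3, 16.3, 26.2, 14.0 and 14.8 CPM and was lower in 4 of 5 pools (edgeR adjusted p = 0.619). Psmb1, Psmb2 and Psmb3 lay between -0.04 and 0.19 on the log2 scale.

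The ATPase ring of the cap held the member nearest to a call. Psmc3 (Rpt5; ENSMUSG00000002102, chromosome 2) measured 51.8, 36.3, 50.3, 44.7 and 36.9 CPM in the CD90-negative and 60, 74.2, 72.8, 53.5 and 57.9 CPM in the CD90-positive libraries of pools 1 to 5. Every CD90-negative library lay below every CD90-positive one, and the largest drop was in pool 2. Its log2 fold was -0.54 (SE 0.16, 95% interval -0.90 to -0.18), a level of 0.689 times that of the CD90-positive fraction, with an edgeR adjusted p of 0.0562. It was called by DESeq2 (adjusted p = 0.0305), which called 11.8% of all genes lower, by limma-voom (adjusted p = 0.0351; 7.54% of all genes lower), and by edgeR restricted to genes averaging 3 or more log2 CPM (adjusted p = 0.0385; 14.3% lower). Over all 19 alternative fits its adjusted p ran from 0.0305 to 0.751, and it was called in these 3. Psmc1 (Rpt2), whose tail opens the gate of the core, went the other way at 38.2, 48.6, 40.9, 60.3 and 26.6 CPM against 33.8, 28.0, 48.4, 40.8 and 18.6 CPM (log2 fold 0.36, SE 0.18, edgeR adjusted p = 0.241). It was higher in 4 of 5 pools and lower in pool 3. Psmc4, Psmc5 and Psmc6 lay between -0.13 and -0.06 on the log2 scale, with 0 called.

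Psmc2 (Rpt1), the remaining ATPase, could not be compared. Its protein-coding transcript was listed at 0 in 9 of 10 libraries and at 1904 reads in the CD90-positive library of pool 3. A retained-intron transcript held 0 to 83.5 reads per library. The other 5 ATPases, which stand with it in the same ring, had between 86.4 and 302.6 TPM in the CD90-negative fraction. Whether the values of 0 are failed estimates or absent RNA was not tested, and no level or fold is drawn from them.

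The 14 non-ATPase genes of the cap spread from -0.37 (Psmd7) to 0.62 (Psmd14), with 7 estimates above and 7 below 0 and 0 called. Psmd14 (Rpn11), the metalloprotease that cuts ubiquitin chains off substrates, measured 15.6, 15.0, 22.5, 16.0 and 11.8 CPM in the CD90-negative and 10.8, 7.90, 21.6, 13.3 and 4.62 CPM in the CD90-positive libraries. It was higher in 5 of 5 pools, by least in pool 3, with a log2 fold of 0.62 (SE 0.25, 95% interval 0.07 to 1.17, edgeR adjusted p = 0.139). Psmd7 (Rpn8), its binding partner in the lid, was the reverse: 43.7, 44.5, 39.5, 52.1 and 32.3 CPM against 55.2, 51.4, 65.7, 54.5 and 45.6 CPM, lower in 5 of 5 pools (log2 fold -0.37, SE 0.15, edgeR adjusted p = 0.150). The ranges of both genes overlapped between the fractions. Psmd8 (Rpn12), another lid subunit, which was added after its values were seen, measured 49.5, 52.2, 43.6, 55.9 and 36.5 CPM against 37.1, 40.8, 40.2, 41.0 and 23.8 CPM, with a log2 fold of 0.39 (SE 0.15, edgeR adjusted p = 0.115). Psmd2 (Rpn1) and Psmd1 (Rpn2), the large scaffold subunits that dock ubiquitin receptors, and the ubiquitin receptor Psmd4 (Rpn10) had log2 folds of -0.16, 0.09 and 0.04, with SE of 0.14, 0.15 and 0.18. Psmd5, Psmd9 and Psmd10, which are chaperones of cap assembly rather than subunits of the finished particle, had log2 folds of 0.27, -0.32 and -0.20. The other members, Psmd3, Psmd6, Psmd11, Psmd12 and Psmd13, lay between -0.26 and 0.27.

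**Figure D2:**
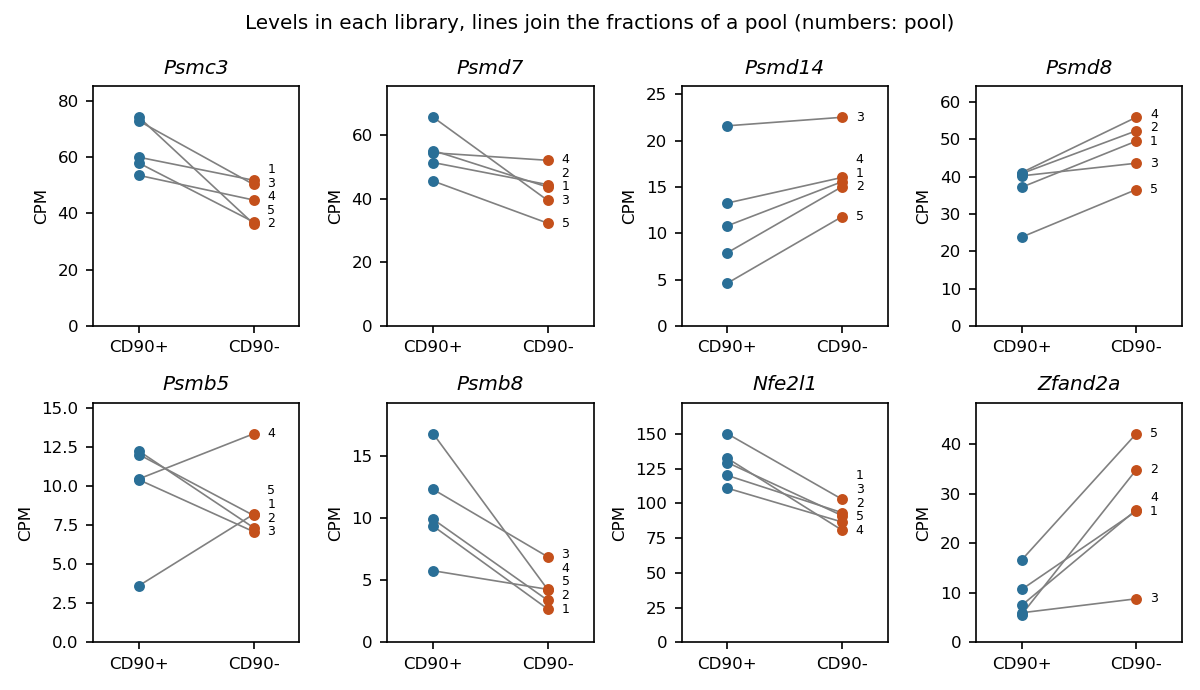
CPM of 8 genes in each library, with CD90-positive at left and CD90-negative at right of each panel; lines join the fractions of a pool, numbered 1 to 5. Psmc3, Psmd7, Psmb8 and Nfe2l1 were lower and Psmd14, Psmd8 and Zfand2a higher in CD90-negative cells of 5 of 5 pools, and Psmb5 went both ways; of these, edgeR called Psmb8, Nfe2l1 and Zfand2a.

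Activators, the inhibitor and the assembly chaperones gave 0 calls as well. Among the activators, Psme1 and Psme2 (PA28 alpha and beta), which interferon raises, had log2 folds of 0.11 and -0.18, Psme3 (PA28 gamma) of -0.12 and Psme4 (PA200) of 0.25, with edgeR adjusted p values from 0.454 to 0.787. Psme4 measured 37.2, 22.1, 48.9, 37.5 and 34.6 CPM against 30, 26.2, 45.6, 33.3 and 18.0 CPM, and was lower only in pool 2. Psme2 measured 10.9, 15.3, 15.2, 12.7 and 9.49 CPM against 13.3, 15.2, 14.4, 13.1 and 15.3 CPM. Psmf1 (PI31), the inhibitor, measured 6.23, 1.78, 5.64, 4.27 and 4.54 CPM against 4.98, 4.93, 6.47, 3.87 and 8.06 CPM (log2 fold -0.40, SE 0.39). Of the assembly chaperones, Psmg3 measured 1.65, 3.79, 2.12, 3.42 and 2.40 CPM against 1.02, 3.30, 1.88, 2.00 and 0.295 CPM and was higher in 5 of 5 pools (log2 fold 0.86, SE 0.64, 95% interval -0.57 to 2.29). Psmg4 measured 2.03, 2.98, 4.10, 2.56 and 2.51 CPM against 4.15, 2.68, 3.78, 3.99 and 4.81 CPM (log2 fold -0.46, SE 0.45), and Psmg1 and Psmg2 had log2 folds of -0.25 and -0.31. These low genes rested on few reads, down to 3 for Psmg3 and 0 for Psmg2 in 1 library, and only the interval of Psmg1 stayed within 2-fold.

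Members that are copies, tissue-restricted or no subunit at all stood apart. Psme2b, a copy of Psme2 on chromosome 11, measured 0.0688, 0, 1.29, 0 and 0.628 CPM in the CD90-negative and 2.52, 0.0743, 1.04, 2.73 and 1.87 CPM in the CD90-positive libraries. Its log2 fold of -3.00 (SE 1.39) had an edgeR adjusted p of 0.202 and a DESeq2 adjusted p of 0.0247, and over 18 alternatives the adjusted p ran from 0.0247 to 0.772. Salmon divides reads between such copies by its model, so the value is uncertain. Summed, Psme2 and Psme2b reached 13.1 ± 2.72 against 15.9 ± 0.758 CPM (SD, n = 5; exact paired permutation test, two-sided, p = 0.188). Psma8, a testis subunit, held 8 reads in 1 library and 0 in the other 9, and Psmb11, a thymus subunit, held 0 to 18 reads. Psmc3ip, which fits the symbol rule but encodes a recombination factor that binds Psmc3, measured 2.13, 2.82, 3.92, 2.35 and 1.92 CPM against 3.35, 0.867, 4.46, 1.93 and 0.0982 CPM (log2 fold 0.80, SE 0.76, edgeR adjusted p = 0.569). Its sign turned to -1.04 when only protein-coding transcripts were counted.

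Levels between genes were compared on TPM, the transcript abundance scale of Salmon that corrects for transcript length, rescaled to the same total over nuclear protein-coding genes in each library. Psmc1 was the highest member over all libraries, at 302.6 ± 82.2 TPM in the CD90-negative and 234.0 ± 47.1 TPM in the CD90-positive fraction (SD, n = 5). Psma4 (279 against 228 TPM), Psmd2 (233 against 266 TPM), Psma7 (242 against 231 TPM) and Psme1 (228 against 210.5 TPM) came next, and these neighbours differed by less than their spread between libraries. At the other end of the tested subunits of the finished particle, Psma2 stood at 29.8 against 29.1 TPM, and below it came the cap chaperones Psmd9, Psmd5 and Psmd10 (19, 23.2 and 13.4 TPM against 23.2, 13.3 and 14.3 TPM). Psmf1 was the lowest of the genes outside the copies and restricted members that was measured in every library, at 11.5 against 11.1 TPM. Over all 10 libraries the means ran from 29.5 (Psma2) to 253.8 TPM (Psma4) in the alpha ring, from 55.0 (Psmb5) to 143 TPM (Psmb6) in the beta ring and from 86.8 (Psmc4) to 268 TPM (Psmc1) among the 5 ATPases tested.

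**Figure D3:**
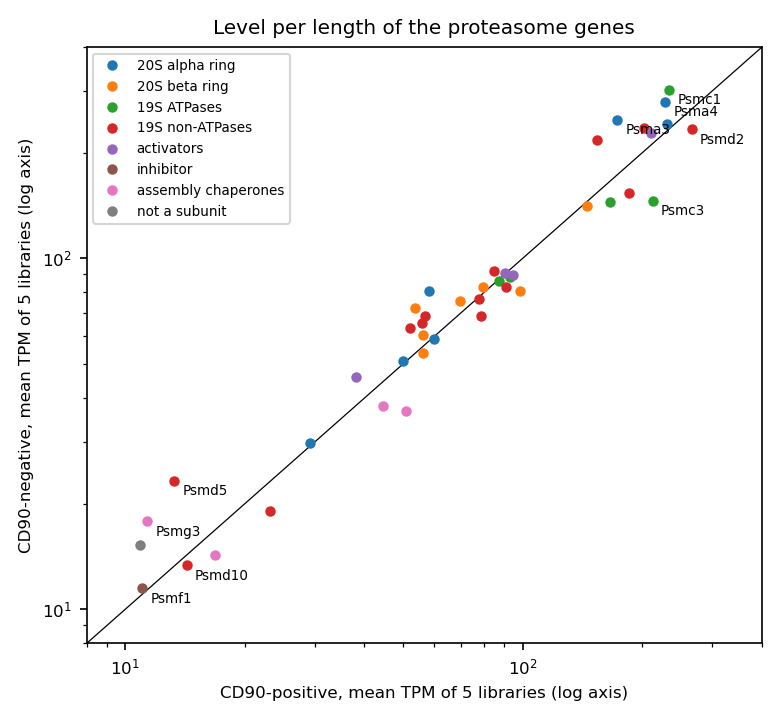
Mean TPM of 5 CD90-positive libraries (x, log axis) against that of 5 CD90-negative libraries (y, log axis) for 43 of the 44 members tested, coloured by role; the line marks equal levels. The members lie along the line over the whole range, from Psmf1 near 11 TPM to Psmc1 at 302.6 and 234.0 TPM, and Psmd5 and Psmg3 lie farthest above it.

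Library levels were compared over the 30 Psma, Psmb, Psmc and Psmd genes that averaged 3 or more log2 CPM, which include the cap chaperone Psmd5. Each gene was set relative to its mean log2 CPM over the 10 libraries. In pool 3 the median of these deviations was 0.32 in the CD90-negative library and 0.47 in its partner, with 24 and 29 of the 30 genes above their mean. In pool 4 it was 0.29 and 0.10, with 24 and 21 genes above their mean, and in pool 5 it was -0.25 and -0.50, with 2 and 6 genes above. In pools 1 and 2 it lay between -0.14 and 0.00, with 12 to 15 genes above. Over all 7447 genes of that abundance the library medians stayed between -0.05 and 0.09. Nuclear protein-coding counts were 19.8 and 28.5 M in pool 3 and 9.56 and 4.57 M in pool 5, while the CD90-negative library of pool 4 had the fewest (3.71 M). The part of depth in this pattern was not tested. In an edgeR test between the 5 pools, which was chosen after these values were seen, 0 of the 44 members passed, beside 0.013% of all genes passing. At an unadjusted p under 0.05 there were 6 members (13.6%), close to the 12.8% of all genes. Across the 10 libraries the median Pearson correlation of log2 CPM between pairs of these 30 genes was 0.46, beside 0.0023 between pairs of all 7447 genes. Libraries share depth and composition, so this is a description only. The paired differences between fractions were less alike, with a median correlation of 0.24 over the 5 pools, beside 0.0095 between pairs of all 7447 genes.

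**Figure D4:**
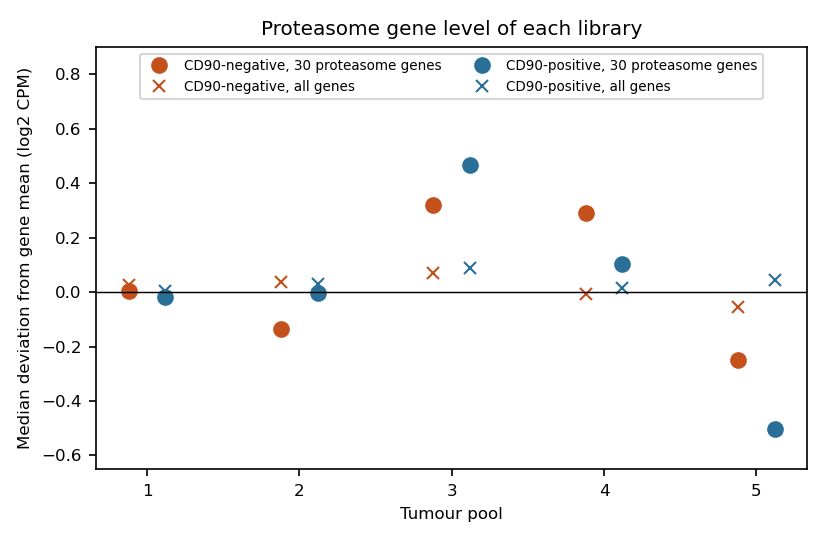
Median deviation from each gene's mean log2 CPM (y axis) in the 10 libraries, by tumour pool (x axis) and fraction (colour), for 30 proteasome genes (dots) and for all genes of that abundance (crosses). Both fractions lie above 0 in pools 3 and 4 and below 0 in pool 5, whereas the crosses stay between -0.05 and 0.09.

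Of the immunoproteasome genes, which the member list leaves out, 2 were tested and Psmb8 fell. Psmb8 measured 2.69, 3.39, 6.89, 4.27 and 4.25 CPM in the CD90-negative and 9.36, 9.91, 12.3, 5.77 and 16.8 CPM in the CD90-positive libraries of pools 1 to 5. It was lower in 5 of 5 pools, with a slight overlap of the ranges, and its log2 fold of -1.33 (SE 0.33, edgeR adjusted p = 0.0267) was called. The call was lost without pool 1, 2 or 5 (adjusted p of 0.119, 0.0734 and 0.0608), without pools 4 and 5 (0.0808), with protein-coding transcripts only (0.0566) and once mitochondrial rRNA share entered the fit (0.751), a fit in which 0 genes of all were called. Psmb10 measured 3.34, 2.08, 2.59, 3.42 and 4.54 CPM against 6.38, 3.64, 5.16, 3.28 and 15.6 CPM. It had a log2 fold of -0.90 (SE 0.38, edgeR adjusted p = 0.166) and was lower in 4 of 5 pools, and Psmb9, with 0 to 73 reads (0 to 1.28 against 0.0248 to 1.3 CPM), was too low to test. On the TPM scale the ratio of Psmb8 to Psmb5, whose place it takes, was 0.254, 0.271, 0.745, 0.311 and 0.643 in CD90-negative libraries and 0.627, 0.684, 0.990, 0.487 and 9.55 in CD90-positive ones. The ratio was lower in 5 of 5 pools (exact paired permutation test, two-sided, p = 0.0625), and the value of 9.55 came from the CD90-positive library of pool 5, where Psmb5 was lowest. It was 1 of 3 ratios tested in this way. Those of Psmb9 to Psmb6 and of Psmb10 to Psmb7 were lower in 4 of 5 pools (p = 0.3125 and 0.125 by the same exact test). Whether the fold of Psmb8 differs from those of the constitutive subunits was tested only through its ratio to Psmb5.

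Of 17 partner and shuttle genes of the proteasome tested, 1 rose (5.88%, against 5.83% of all genes) and 0 fell (median log2 fold 0.11). Zfand2a (AIRAP), a stress-induced protein that binds the cap, rose from 10.7, 5.60, 5.97, 7.46 and 16.6 CPM to 26.4, 34.8, 8.79, 26.7 and 42.0 CPM in pools 1 to 5 (log2 fold 1.53, SE 0.29, edgeR adjusted p = 0.0087). Pool 3 moved least. The call was lost without pools 4 and 5 (edgeR adjusted p of 0.124) and once mitochondrial rRNA share entered the fit (0.873). The core assembly factor Pomp (0.11), the ubiquitin receptor Adrm1 (-0.13) and the cap deubiquitinases Usp14 (0.40) and Uchl5 (0.16) did not pass.

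Of 12 regulators of proteasome genes, 2 fell (16.7%, against 7.05% of all genes) and 0 rose (median log2 fold -0.04). All 12 averaged 3 or more log2 CPM, and of the 7447 genes of that abundance 896 fell, a larger share than among all genes. So few regulators do not show an excess. Nfe2l1 (NRF1), the membrane-bound factor that raises proteasome genes when proteasome activity is low, measured 103, 91.2, 93.3, 80.7 and 86.6 CPM in the CD90-negative and 150, 129, 120.1, 132 and 111 CPM in the CD90-positive libraries. Its ranges did not overlap, and it had a log2 fold of -0.50 (SE 0.13, edgeR adjusted p = 0.033). The call was lost without pool 1, 2 or 4 (adjusted p of 0.141, 0.0881 and 0.0831), without pools 4 and 5 (0.154), without the replicate block (0.0572), with no filter on low counts (0.0552), with protein-coding transcripts only (0.0792) and once mitochondrial rRNA share entered the fit (0.950). Bach1, a repressor of antioxidant genes, measured 31.8, 32.3, 89.2, 42 and 25 CPM against 78.7, 82.5, 113, 73.3 and 49.4 CPM, the ranges overlapping through pool 3. Its log2 fold was -0.96 (SE 0.18, edgeR adjusted p = 0.0078). Its call was lost without pool 1 (0.0522), without pools 4 and 5 (0.0782), without the replicate block (0.155), with a length offset (0.114) and with the covariate (0.760).

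Nfe2l1 acts through antioxidant response elements, so member promoters were searched for the core letters TGACNNNGC on both strands. RefSeq windows of GRCm38.p6, from 250 bases before to 50 after a start, were available for 39 of the 47 members (42 windows). The letters stood in 6 windows (14.3%) and in 12.4% of all 32851 windows. The 6 genes were Psmb5, Psmb6, Psmc6, Psmd9, Psmd12 and Psme4, and their log2 folds ran from -0.32 to 0.27, with 0 called. The stretches of the catalytic subunits Psmb5 and Psmb6 and of the cap chaperone Psmd9 are shown, since their matches lie on the gene's own strand, beginning 47, 9 and 31 bases before the start. Each is 60 bases, 5′ to 3′ on the gene's strand, with the match in capitals. The Psmb5 stretch is chr14:54618009-54618068 on the minus strand, that of Psmb6 is chr11:70525297-70525356 on the plus strand, and that of Psmd9 is chr5:123228130-123228189 on the plus strand. A match describes letters and is not evidence of binding.
Psmb5: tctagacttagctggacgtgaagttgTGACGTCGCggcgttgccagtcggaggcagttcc
Psmb6: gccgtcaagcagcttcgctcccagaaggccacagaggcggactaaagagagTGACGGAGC
Psmd9: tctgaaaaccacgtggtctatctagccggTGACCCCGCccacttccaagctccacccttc

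Other large housekeeping complexes were set beside the members as a description, with no test of the difference. Of 78 cytosolic ribosomal protein genes tested, 7 rose (8.97%, against 5.83% of all genes) and 0 fell, with a median log2 fold of 0.23. Of 7 genes of the TRiC chaperonin, which folds actin and tubulin, 0 were called, with a median of 0.24. By pool the ribosomal median was 0.29, 0.03, -0.01, 0.73 and 0.11 and the TRiC median 0.39, 0.12, -0.02, 0.56 and 0.25, beside 0.05, -0.05, -0.15, 0.13 and 0.03 for the proteasome members. All 3 sets were lowest in pool 3 and highest in pool 4.

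The share of counts on protein-coding transcripts was taken over all members together. On average 89.1% ± 1.94 of member counts in CD90-negative and 89.4% ± 1.9 in CD90-positive libraries fell on protein-coding transcripts, lower in 3 of 5 pools (SD, n = 5; exact paired permutation test, two-sided, p = 0.688). Single members lay farther apart in pooled counts, such as Psme2 (84.3% against 94.4%), Psma6 (88.0% against 97.1%) and Psmf1 (70.1% against 80.4%), without a test. Over the other nuclear protein-coding genes the share was 86.7% ± 1.59 against 88.4% ± 1.41 and lower in 5 of 5 pools (p = 0.0625 by the same exact test). Members took 0.252% ± 0.0290 of nuclear protein-coding counts in CD90-negative libraries and 0.217% ± 0.0486 in CD90-positive ones (SD, n = 5) and were higher in 4 of 5 pools. This share has no TMM scaling, and on it the members leaned higher, whereas their median TMM-scaled log2 fold was -0.06. The share and the median also differ in kind. The share sums counts, to which abundant members add most, and the median weighs each gene alike. Summed TMM-scaled levels of the members ran from 777 to 1137 CPM in CD90-negative and from 748 to 1277 CPM in CD90-positive libraries. The source of the contrast was not tested.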

How the data were processed

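RNA of CD90-negative and CD90-positive myCAFs was sequenced with a low-input stranded kit (0.1 to 1.2 ng RNA, RIN 3.1 to 8.7, per the labels' protocols). The deposited files hold estimated counts, TPM and lengths per transcript, made by the authors with Salmon 1.9.0, per the submitters' processing notes and the file headers. For the annotation release, strand and bias settings, nothing is given in the sources used. Deposited TPM values are corrected for length by Salmon, per the file headers, and were used here only to compare levels between genes.

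A GENCODE table of another build gave gene names, gene assignment, chromosomes and gene and transcript types: 133666 of 144584 transcripts matched (92.4%). Unmatched transcripts were left out of the gene sums. They held 6.58, 5.74, 8.02, 3.63 and 6.89% of counts in the CD90-negative libraries of pools 1 to 5. In the CD90-positive libraries they held 10.7, 8.60, 10.9, 11.1 and 12.1%. Whether any belonged to a member was not examined, and an alternative fit kept them as separate entries. Estimated counts were summed per gene and rounded, filtered with filterByExpr and scaled by TMM. They were tested with edgeR 4.0.16 (R 4.3.3; quasi-likelihood, robust), with the tumour pool as a block and Benjamini-Hochberg adjustment over 15378 genes. The fit was tried on simulated counts, with changed genes drawn from all abundances tested. It called 19.6% of 97 genes changed 2-fold and 50% of 96 genes changed 4-fold. Of its 73 calls, 6 were false. Sample titles list identical animals for the fractions of each pool. Correlations of their deviations from the group means were 0.06, 0.00, 0.46, 0.03 and 0.19 in pools 1 to 5. SE is the absolute log2 fold over the square root of F, and intervals are 95%. DESeq2 1.42.0, limma-voom 3.58.1, other scalings, filters, transcript sets and left-out pools were alternatives. The members and lists were chosen with earlier results of these data known. Named were, per role, the highest and lowest log2 fold, the catalytic beta subunits, called partners and regulators, the immunoproteasome genes and Thy1, beside every member by range. The labels describe 5 male mice and the titles name 11 animals. Protein sequences were not used here. A further gene list of the design is not reported here.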

Additional observations from a re-analysis of the deposited data

Results flagged for a closer look

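In 100 sets of 5 libraries, 1 gene in 1 fraction each, 9 had a highest or lowest library set far from the other 4 (gap over range above 0.71). Independent normal values pass this limit at a rate of about 5% of sets. These sets share libraries and some lie near 0 counts, so the 9 are not read against that rate. Psmb5 had such a library in both fractions: 13.3 CPM in the CD90-negative library of pool 4, where the others had 7.09 to 8.2, and 3.63 CPM in the CD90-positive library of pool 5, where the others had 10.4 to 12.2. Psma5 was at 16.3 CPM in the CD90-negative library of pool 3 (others 8.65 to 10.4), and Psmb4 at 26.2 CPM in the CD90-positive library of pool 3 (others 14 to 16.3). The CD90-positive library of pool 5 was low for Psmd8, at 23.8 CPM (others 37.1 to 41), and high for Psmb10, at 15.6 CPM (others 3.28 to 6.38). Psmc2 was at 29.1 CPM in the CD90-positive library of pool 3 (others 0 to 0.307) and at 2.82 CPM in the CD90-negative library of pool 2 (others 0.0739 to 0.376). Psma8 was at 0.246 CPM in the CD90-positive library of pool 4 and at 0 in the other 4.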

How the results depend on the processing

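Over 19 alternative fits, 16 called 0 members. Members called lower numbered 2 with DESeq2, 1 with limma-voom and 1 among genes averaging 3 or more log2 CPM, and 0 were called higher in any fit or at an adjusted p under 0.01. The fit without the replicate block called 0 members higher and 0 lower (median log2 fold -0.07) and 965 genes in all, against 1980 with the block. All-gene calls were also fewer in these fits: 675 without pool 1, 1252 without pool 2, 1239 without pool 4, 541 without pools 4 and 5 and 1271 with coding transcripts. They were 3452 with DESeq2 and 2934 with no filter. The members' median ran from -0.13 to 0.03. Of 393 single-gene values, 9 changed sign. Psmc3ip went to -1.035 with coding transcripts only, and Psmb5 ran from -0.41 to 0.074 with 1 pool left out. With mitochondrial rRNA share in the fit, which called 0 genes in all and moved the median of all genes from 0.04 to 0.15, log2 folds became 0.31 for Psma1, -0.10 for Psma3, 0.14 for Psmb5, -0.0177 for Psmc1 and 5.07 for Psme2b. The cause was not tested. Depth limits the low members most.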
